A study of Mus musculus with 16 samples.

Results

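The 4 microRNAs (miRs) described here, mmu-miR-10a, mmu-miR-10b, mmu-miR-196a and mmu-miR-196b, are encoded inside the Hox gene clusters and are written below without the prefix for mouse. They were taken by name, as every non-control probe whose listed miR was one of these 4, which gave 10 of the 1712 probes and 4 of the 577 miRs on the array. No measured value entered that choice. Each miR was followed over 6 populations of mouse bone marrow cells, hybridised as RNA to 16 single-color Agilent miR arrays. There were 3 arrays each of megakaryocyte-erythroid progenitors (MEP), granulocyte-monocyte progenitors (GMP), common myeloid progenitors (CMP), multipotent progenitors (MPP) and short-term hematopoietic stem cells (ST-HSC), and 1 array of long-term stem cells (LT-HSC).

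All cells came from young adult female C57Bl/6 mice, with the marrow of several mice pooled for each sample. In every population mature cells had been removed by lineage antigens and c-kit positive cells enriched before sorting on Sca-1, CD34, FLT3 and FcRγ. LT-HSC, ST-HSC and MPP (the HSC subsets, 7 arrays) were sorted together, and CMP, GMP and MEP (the myeloid progenitors, 9 arrays) in another sort, so sort and side cannot be told apart. A sorted population is a mixture of single cells, and fewer cells that carry a miR cannot be told apart from less of it in each cell.

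Hox genes code for homeodomain transcription factors that pattern the body axis in the embryo, and several of them, Hoxa9, Hoxa10 and Hoxb4 among them, are known for roles in blood stem and progenitor cells. The miR-10 and miR-196 genes sit between these protein-coding genes and were copied along with them when the clusters duplicated in evolution. A miR directs repression of messenger RNAs chiefly through its seed, the bases near its 5′ end that pair with the target, and Hox messenger RNAs are known targets of both families, HOXB8 of miR-196 being the textbook case.

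The mature sequences show why the 4 miRs form pairs. They are given 5′ to 3′ from RefSeq (mouse build GRCm38.p6), with the seed, bases 2 to 8, in capitals.
miR-10a: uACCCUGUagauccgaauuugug
miR-10b: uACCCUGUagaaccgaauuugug
miR-196a: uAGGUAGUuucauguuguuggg
miR-196b: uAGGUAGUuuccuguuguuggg
miR-99a: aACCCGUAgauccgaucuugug
let-7e: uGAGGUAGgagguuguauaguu

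MiR-10a and miR-10b differed by a single base, U12A, counted from 1 at the 5′ end with the miR-10a base first. MiR-196a and miR-196b likewise differed only by A12C. Of the 1679 mature mouse miRs in the RefSeq table, only miR-10a and miR-10b had the seed ACCCUGU, and only miR-196a and miR-196b had AGGUAGU. MiR-99a is shown because miR-99a, miR-99b and miR-100 are relatives of miR-10 with another seed, ACCCGUA. Let-7e is shown because the letters AGGUAG, bases 2 to 7 of the miR-196 pair, stand at bases 3 to 8 of all 9 let-7 and miR-98 sequences, 1 base further on. Those letters were at that place in 11 of the 1679 mature miRs.

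MiR-10a lies on the plus strand at chr11:96317186-96317208 (GRCm38.p6), inside the annotated span of Hoxb3 and between Hoxb5 and Hoxb4. MiR-10b lies on the plus strand at chr2:74726074-74726096, inside the spans of Hoxd3 and Hoxd4. MiR-196a has a gene in each of 2 clusters. Mir196a-1 gives it on the plus strand at chr11:96265187-96265208 between Hoxb13 and Hoxb9, and Mir196a-2 on the plus strand at chr15:102973365-102973386 between Hoxc10 and Hoxc9. Both genes give the same mature sequence, and a probe cannot tell them apart. MiR-196b comes from the minus strand at chr6:52230129-52230150 between Hoxa9 and Hoxa10.

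Each miR had probes of several lengths, and the length is the number of miR bases a probe spans. MiR-10a and miR-10b had probes of 20 and 21 bases, miR-196b of 19 and 20, and miR-196a of 19, 20, 21 and 22. All 10 probes spanned the base by which a miR differs from its partner. How far a probe for one partner also picks up the other was not tested.

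Detection rests on the calls of the scanner software for single spots: where at least 0.5 of a probe's spots on an array carried the call, the probe is said to be well above background there. The 21-base miR-10a probe and the 20-base miR-196b probe were well above background on all 16 arrays, as were 44.3% of the 237 tested miRs. The 21-base miR-10b probe was well above background on 10 arrays: all of ST-HSC and MPP, 2 of CMP and 2 of GMP. The 22-base miR-196a probe was so on 9 arrays: all of ST-HSC and MPP, 2 of CMP and 1 of GMP. Neither miR-10b nor miR-196a reached that mark in LT-HSC or in any of the MEP samples.

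In each miR the longest probe was the one most often detected. The shorter miR-10a probe was well above background on 14 arrays, missing 2 of the 3 MEP arrays, and the shorter miR-196b probe on 13, missing all 3 of MEP. The 20-base miR-10b probe was well above background on 6 arrays and the 21-base miR-196a probe on 6. The 19- and 20-base miR-196a probes were not well above background on any array. Over the 16 arrays the brighter probe and the next one followed each other, with Pearson's r of 0.99 for miR-10a, 0.92 for miR-10b, 0.98 for miR-196a and 0.96 for miR-196b, as a description.

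**Figure D1:**
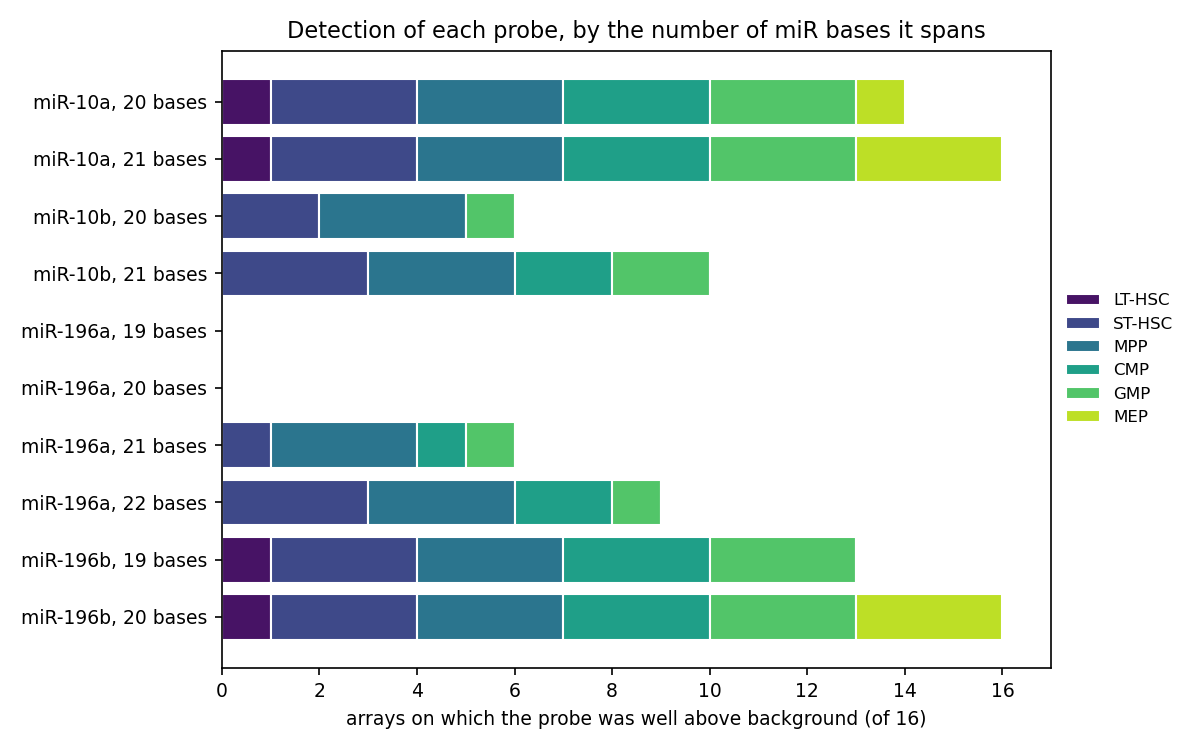
Number of the 16 arrays (x axis) on which each of the 10 probes (y axis, named by miR and by the bases it spans) was well above background, with the populations stacked in color. MEP arrays appear only in the bars of miR-10a and of the 20-base miR-196b probe, and 2 miR-196a probes have no bar.

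Levels below are quantile-normalized, background-subtracted signals on the log2 scale, with the brightest passing probe standing for its miR. A floor of 1.62 was set from the negative control spots, and values at the floor have no order. Probes detected in this sense on 3 arrays or more were kept, which left 237 miRs, and all 4 miRs were among them. MiR-10b and miR-196a passed through the populations in which they were bright. Differences were tested with 1 limma model over all 16 arrays, adjusted by Benjamini-Hochberg over the 237 miRs and called at an adjusted p under 0.05. The p-values measure the spread between these pooled samples, and the single LT-HSC array was assumed to vary like the others. Comparisons that share a population share its arrays.

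The arrays lay on 3 slides, known from their bar codes. CMP, GMP and MEP had replicates 1 and 2 on slide 1 and replicate 3 on slide 2, together with LT-HSC 1 and ST-HSC 1. MPP 1 to 3 and ST-HSC 2 and 3 were on slide 3. Slide 1 was read on another scanner model, and its negative controls were brighter, with a 95th percentile of 9.94 to 44.3 units per array against 1.53 to 3.35 on the other slides. The erythroid markers miR-144, miR-451 and miR-486, whose signals summed to 4044 to 6187 units in MEP, summed to 2387 on the LT-HSC array against 85.1 to 308 in ST-HSC, and 3 of the 3 were well above background there. MiR-223, the granulocyte and monocyte marker, was higher in GMP than in MEP by 4.43 (log2). The lymphoid markers miR-150 and miR-155 summed to 304 to 354 units in MPP, 121 to 239 in ST-HSC, 123 in LT-HSC, 82.1 to 212 in CMP, 52.4 to 129.9 in GMP and 19.0 to 38.2 in MEP, and were well above background in 6 of 6 marker and array pairs in MPP and 3 of 6 in MEP. Of the 5 markers of other tissues (miR-1, miR-9, miR-122, miR-124 and miR-133a), 3 of 15 marker and array pairs were well above background in CMP and 2 of 15 in MEP, with summed signals of 26.6 to 70.0 and 16.4 to 248 units, and none in the other populations.

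MiR-10a, which is encoded between Hoxb5 and Hoxb4, was high in the HSC subsets, intermediate in CMP and GMP and low in MEP. Its log2 signal was 9.004 on the LT-HSC array and 8.37, 9.66 and 9.75 in ST-HSC. It was 9.79, 9.91 and 10.08 in MPP. The lowest of these 7 arrays was ST-HSC 1. In the myeloid progenitors it was 7.95, 8.10 and 6.79 in CMP and 7.65, 7.83 and 6.57 in GMP. MEP stood below every other population at 5.02, 5.70 and 3.61. All 7 HSC arrays lay above all 9 myeloid arrays, as was true in that direction of 2.95% of the tested miRs.

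The means of miR-10a ran in the order MPP (9.93 ± 0.15, SD, n = 3), ST-HSC (9.26 ± 0.78), LT-HSC, CMP (7.61 ± 0.72), GMP (7.35 ± 0.68) and MEP (4.78 ± 1.06). Arrays of ST-HSC and LT-HSC overlapped, as did those of CMP and GMP. Arrays of MPP and ST-HSC did not overlap, nor did those of GMP and MEP. Of all tested miRs 35.4% had no overlap between ST-HSC and MPP and 66.7% none between GMP and MEP. Before normalization the signal ran from 8.89 units on MEP 3 to 1132 units on MPP 3.

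MiR-196b, encoded between Hoxa9 and Hoxa10, peaked in MPP and had the smallest spread of the 4 within MPP and ST-HSC. Its log2 signal was 6.53 on the LT-HSC array, 7.998, 8.19 and 8.28 in ST-HSC and 9.28, 9.14 and 9.24 in MPP. The LT-HSC array was the lowest of the HSC subsets and fell among the myeloid arrays. Levels in CMP were 7.80, 7.65 and 6.72, and in GMP 6.43, 6.51 and 5.48. In MEP they were 4.29, 5.01 and 4.15. The order of the means was MPP (9.22 ± 0.07), ST-HSC (8.16 ± 0.14), CMP (7.39 ± 0.58), LT-HSC (1 array), GMP (6.14 ± 0.57) and MEP (4.48 ± 0.46; SD, n = 3 for the others). MPP and ST-HSC did not overlap, as for 35.4% of tested miRs, nor did GMP and MEP, as for 66.7%. The untransformed signal ran from 12.4 units on MEP 3 to 644 on MPP 3.

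MiR-10b, the miR-10 family member of the Hoxd cluster, also stood highest in MPP and lowest in MEP. Its log2 signal was 4.17, 5.83 and 5.89 in ST-HSC and 5.85, 5.88 and 6.34 in MPP. On the LT-HSC array it was 3.77, not well above background. CMP gave 5.44, 5.29 and 3.11 and GMP 4.91, 5.49 and 3.23, of which the last value of each was not well above background. In MEP all 3 values, 2.46, 2.62 and 1.62, were below that mark, and the last was at the floor. Neighbours in the order of the means (MPP, ST-HSC, CMP, GMP, LT-HSC, MEP) overlapped, apart from LT-HSC and MEP, which cannot be ordered since neither was well above background.

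MiR-196a, which has a gene in the Hoxb and another in the Hoxc cluster, passed the detection mark on 9 arrays and had its highest means in MPP and CMP. Its log2 signal was 3.33 on the LT-HSC array (not well above background), 4.91, 3.31 and 3.66 in ST-HSC and 4.77, 4.57 and 4.595 in MPP. CMP gave 5.29, 4.97 and 3.42, the last not well above background. In GMP it was 3.49, 3.89 and 2.82, of which only the 3.89 was well above background. MEP gave 1.62, 2.77 and 1.62, of which replicates 1 and 3 were at the floor. Neighbours in the order of the means (MPP, CMP, ST-HSC, GMP, LT-HSC, MEP) overlapped, apart from LT-HSC and MEP, which again were both below the detection mark. On CMP 1 and CMP 2 the signal before normalization, 54.4 and 45.2 units, stood beside negative controls with a 95th percentile of 30.6 and 44.3 units. On the 3 MPP arrays it was 27.6 to 30.3 units beside 1.99 to 3.35.

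**Figure D2:**
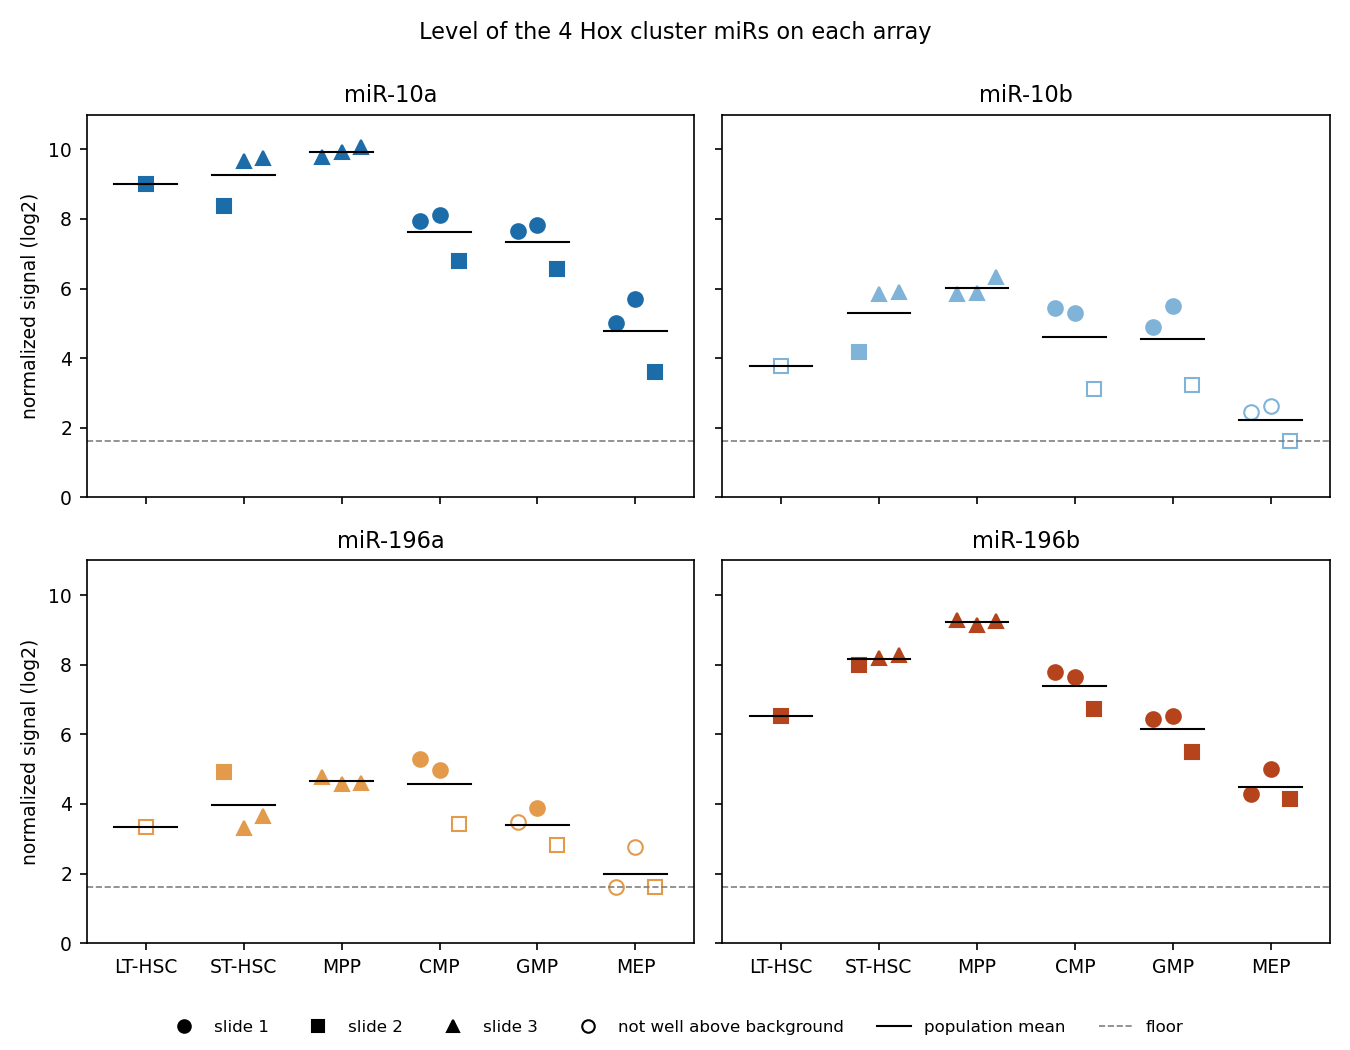
Normalized signal (y axis, log2) of the 4 miRs on each of the 16 arrays, by population (x axis), with the slide as the marker shape, open markers where the probe was not well above background, a bar at the population mean and the floor of 1.62 dashed. All 4 miRs had their lowest mean in MEP, with open markers there for miR-10b and miR-196a, and the slide 2 arrays of CMP, GMP and MEP lay below the slide 1 arrays of the same population, except that miR-196a was at the floor on both MEP 1 and MEP 3.

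Slide 1 and slide 2 arrays of the same myeloid population differed for all 4 miRs. In 12 of 12 pairings of a miR with CMP, GMP or MEP, the mean of the slide 1 arrays was above the slide 2 array. For miR-10a the gap was 1.24 in CMP, 1.17 in GMP and 1.75 in MEP (log2). For miR-196b it was 1.004, 0.99 and 0.50, and for miR-196a 1.71, 0.87 and 0.57. For miR-10b it was 2.25, 1.97 and 0.92, with MEP 3 at the floor. The MEP gaps of miR-10b and miR-196a lie between values that were all below the detection mark. Of all tested miRs 35% were higher on slide 1 in all 3 populations, and the median gap over the tested miRs was 0.07 in CMP, 0.13 in GMP and 0.15 in MEP. Within each of slides 1 and 2, CMP stood above MEP for miR-10a and miR-196b. On slide 2 neither miR-10b nor miR-196a was well above background in CMP or MEP. The part of the slide in the results was not tested beyond the slide terms and within-slide values given beside them.

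**Figure D3:**
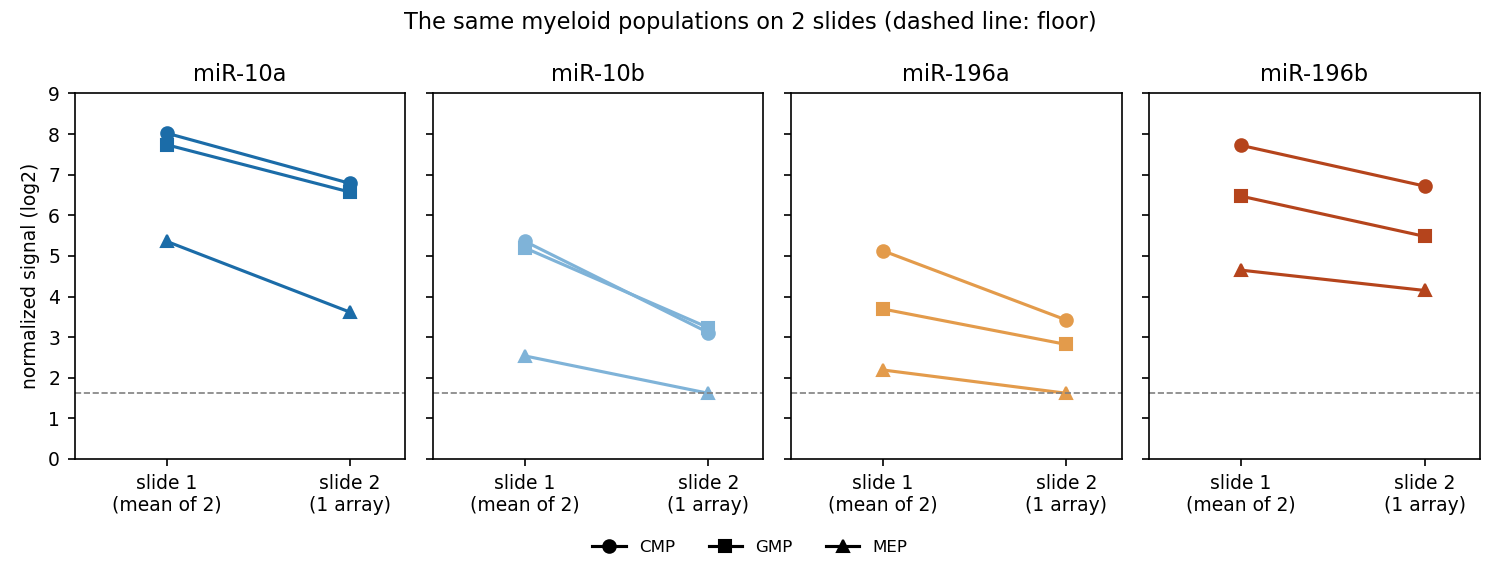
Mean of the 2 slide 1 arrays and value of the slide 2 array (x axis) for CMP, GMP and MEP, as normalized signal (y axis, log2) with the floor dashed. Every line falls from slide 1 to slide 2, and for miR-10a and miR-196b MEP is the lowest population within each slide, whereas MEP values of miR-10b and miR-196a were not well above background.

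A moderated F over the 6 populations was called for all 4 miRs, as for 82.7% of the tested miRs. Its adjusted p (limma) was 9.41e-07 for miR-196b, 2.90e-05 for miR-10a, 0.00342 for miR-10b and 0.0036 for miR-196a.

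Setting the HSC subsets against the myeloid progenitors asked which miRs mark the stem cell end of the hierarchy. MiR-10a was higher in the HSC subsets by 2.82 ± 0.37 (log2 difference ± SE, limma adjusted p = 3.56e-05), from a mean of 6.58 to 9.40 with each population weighted equally. MiR-196b was higher by 1.96 ± 0.22 (adjusted p = 1.18e-05) and miR-10b by 1.23 ± 0.46 (adjusted p = 0.0416). MiR-196a differed by 0.66 ± 0.35 and was not called (adjusted p = 0.131). Over other processing the difference ran from 1.67 to 3.03 for miR-10a and from 1.10 to 2.38 for miR-196b. The lymphoid marker miR-150 was higher in the HSC subsets by 2.14 and miR-155 by 1.04, and the pan-blood marker miR-142-3p differed by -1.03 (limma adjusted p = 6.21e-05, 0.0122 and 0.0110). The stem and endothelial markers miR-126-3p and miR-125b-5p were higher there by 1.68 and 3.00, and miR-223 differed by -0.76 (limma adjusted p = 6.96e-05, 2.41e-08 and 0.0439). The part of the cells these markers stand for in the differences was not tested. MiR-10b was well above background on 6 of the 7 HSC and 4 myeloid arrays, and miR-196a on 6 and 3. So 3 of the 4 miRs were called, all in the direction in which 25.3% of the tested miRs were called, with 48.1% called either way. The median difference of the 4 was 1.598, and that of all tested miRs 0.06.

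With slide as a block, the differences between HSC subsets and myeloid progenitors were 2.99 for miR-10a, 1.44 for miR-10b, 2.15 for miR-196a and 2.38 for miR-196b (limma adjusted p = 2.20e-06, 0.00347, 0.000651 and 6.81e-06). MiR-196a was then called too, beside 44.3% of the tested miRs. Slide 3, with all MPP arrays and ST-HSC 2 and 3, is tied to the other slides only through ST-HSC 1. On that array miR-196a was 4.91, against 3.31 and 3.66 on ST-HSC 2 and 3. Within slide 2, with 2 HSC and 3 myeloid arrays, the differences were 3.03 for miR-10a, 1.32 for miR-10b, 1.50 for miR-196a and 1.81 for miR-196b, and none of them was called (limma adjusted p = 0.810, 0.927, 0.927 and 0.927). Within that slide limma called 0 of all tested miRs, and 11 had an unadjusted p under 0.05. The miR-10b call was lost in 9 of the 16 fits that left out 1 array, where its adjusted p reached 0.0761, and in 7 of 17 other ways of processing, among them normexp background correction (0.28, adjusted p = 0.0754) and its second probe (0.21, adjusted p = 0.718). Without normalization between arrays miR-196b lost its call (1.10, limma adjusted p = 0.0890). Without the LT-HSC array miR-196a was called, at 0.98 (limma adjusted p = 0.0217).

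Inside the HSC subsets, LT-HSC were set against ST-HSC. MiR-196b differed by -1.63 ± 0.48 between the single LT-HSC array and ST-HSC (limma adjusted p = 0.0261), a p that rests on the spread within the other populations. It was the single call among the 4, with 22.8% of tested miRs called and 16.5% called in that direction. The difference was -1.57 without ST-HSC 3, where it lost its call (limma adjusted p = 0.0627), and -1.47 within slide 2, where LT-HSC 1 and ST-HSC 1 lay side by side with no test possible. It lost its call in 5 of 17 other ways of processing, where the difference ran from -2.92 to -0.73 (limma adjusted p up to 0.369). MiR-10a differed by -0.26 ± 0.77 (adjusted p = 0.825), and within slide 2 the sign turned, to 0.64. MiR-10b was at least 1.81-fold higher in ST-HSC but not called (limma adjusted p = 0.301). Such a bound sets the mean of the brighter population against a level on each array of the dimmer one. That level is whichever is higher of the probe's own value and the dimmest value that any detected probe had there. A bound holds for the reported processing only and has no interval. For miR-10b it is 0.86 in log2, but within slide 2 LT-HSC 1 minus ST-HSC 1 was only -0.40. ST-HSC 1, at 4.17, lay below the level used for LT-HSC 1, which was 4.44, so the bound rests on ST-HSC 2 and 3. Over 16 other ways of processing the miR-10b difference ran from -2.58 to -0.39. For miR-196a no fold can be given, and its measured difference of -0.63 ± 0.74 was not called (limma adjusted p = 0.580). With slide as a block it was -1.58, which is LT-HSC 1 minus ST-HSC 1 on slide 2, with LT-HSC 1 not well above background. The erythroid marker signal of the LT-HSC array stands beside these values, and its part in them was not tested.

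ST-HSC were set against MPP, the next step in the hierarchy, and all 4 miRs had lower means in ST-HSC without any call. The differences were -0.66 ± 0.55 for miR-10a, -0.72 ± 0.68 for miR-10b, -0.69 ± 0.52 for miR-196a and -1.06 ± 0.34 for miR-196b (limma adjusted p = 0.486, 0.541, 0.460 and 0.0996). Of all tested miRs 4.64% were called. Without adjustment limma would have called miR-196b alone of the 4. The arrays of both populations on slide 3, where 24.9% of the tested miRs were called, gave limma calls for miR-196b, at -0.98 (adjusted p = 0.00543), and for miR-196a, at -1.16 (adjusted p = 0.00962). With slide as a block both differences were the same as on slide 3, since MPP lay on that slide alone, so the block brings no further evidence. Limma called both there too (adjusted p = 0.00842 and 0.0354), beside 17.7% of the tested miRs. MiR-10a and miR-10b on slide 3 alone differed by -0.22 and -0.16. ST-HSC 1 on slide 2 was the ST-HSC array with the lowest miR-10a and miR-10b and the highest miR-196a.

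From MPP to CMP, the step into the myeloid branch, 1 miR of each seed pair was called. MiR-10a was higher in MPP by 2.31 ± 0.55 (limma adjusted p = 0.00604) and miR-196b by 1.83 ± 0.34 (adjusted p = 0.00127). MiR-10b differed by 1.41 ± 0.68 and miR-196a by 0.09 ± 0.52, and neither was called (limma adjusted p = 0.124 and 0.887). Without normalization neither miR-10a nor miR-196b was called (limma adjusted p = 0.127 and 0.183), and by its second probe miR-196b was not (0.90, adjusted p = 0.113). MiR-10b was called in 2 of 16 other ways of processing, with the authors' values (0.70, limma adjusted p = 0.0384) and with scaling to the 75th percentile of probes above background on all arrays (1.70, adjusted p = 0.0403). Both calls were in the direction of 17.3% of the tested miRs, with 32.9% called in all. The intervals of the differences that were not called, -0.07 to 2.89 for miR-10b and -1.03 to 1.21 for miR-196a (95%), overlapped those of their partners, 1.13 to 3.50 and 1.10 to 2.56, and the difference within a pair was not tested. MiR-150 was higher in MPP by 1.74 and miR-142-3p differed by -1.91 (limma adjusted p = 0.00929 and 0.00548). The other lymphoid marker, miR-155, differed by 0.77 and was not called (limma adjusted p = 0.205).

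No slide held both MPP and CMP, and the slide term is known there only through ST-HSC 1 and replicate 3 of the myeloid progenitors. With it, miR-196a was higher in MPP by 2.21 ± 0.57 (limma adjusted p = 0.0175), against 0.09 without it, and 20.7% of the tested miRs were called. MiR-10a was then higher by 1.90 (adjusted p = 0.00287) and miR-196b by 2.15 (adjusted p = 0.00134). MiR-10b stayed uncalled, at 0.86 (limma adjusted p = 0.253).

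CMP divide into GMP and MEP, and of the 4 miRs only miR-196b was called between CMP and GMP. It was higher in CMP by 1.25 ± 0.34 (limma adjusted p = 0.0418), with 7.59% of tested miRs called and 4.64% in that direction. This call was lost in 10 of the 16 fits that left out 1 array, with an adjusted p of up to 0.143, and in 3 of 18 other ways of processing (limma adjusted p = 0.0566 to 0.781). Within slide 1 the difference was 1.25 (limma adjusted p = 0.0380), where 18.6% of the tested miRs were called. A slide block cannot change this difference, but with it the adjusted p was 0.000419 and 28.7% of the tested miRs were called. MiR-150 was also higher in CMP, by 1.68 (limma adjusted p = 0.0361), whereas miR-155 differed by 0.43 and was not called (adjusted p = 0.767). MiR-10a and miR-10b differed by 0.26 ± 0.55 and 0.07 ± 0.68 (limma adjusted p = 0.930 and 0.993), with 95% intervals of -0.92 to 1.44 and -1.41 to 1.54. MiR-196a was higher in CMP by 1.16 ± 0.52, not called (adjusted p = 0.215), and was called with slide as a block (limma adjusted p = 0.0130) and without CMP 3, at 1.73 (adjusted p = 0.0421).

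In MEP, the erythroid and megakaryocyte progenitors, miR-10a and miR-196b were called lower than in CMP and in GMP. MiR-10b and miR-196a were called lower too, but were not well above background on any MEP array. They passed the filter through other populations only, so their calls against MEP are no independent support. For miR-196a against GMP, a single GMP array was well above background. Against CMP, miR-196b fell by 2.91 ± 0.34 (limma adjusted p = 8.68e-06) and miR-10a by 2.83 ± 0.55 (adjusted p = 0.000554). Over 18 other ways of processing both stayed called, at 1.36 to 3.23 for miR-196b and 1.38 to 3.19 for miR-10a. In the reported processing miR-10b was at least 1.94-fold and miR-196a at least 1.87-fold lower in MEP, where neither was well above background on any array. Their measured differences were 2.38 ± 0.68 and 2.56 ± 0.52 (limma adjusted p = 0.00742 and 0.000811). Over 17 other ways of processing these ran from 0.39 to 2.82 and from 0.37 to 2.94. The lowest lay below the bounds, which are 0.96 and 0.90 in log2. That is 4 of 4 called, of which only miR-10a and miR-196b were well above background in MEP. The comparison called 64.6% of the tested miRs, and 43.9% of the tested miRs in that direction. The median of all tested miRs was 0.55. The median of the 4 was 2.70 as measured and 1.90 with miR-10b and miR-196a at their bounds. For miR-10a and miR-196b no CMP array overlapped a MEP array, as for 46.8% of tested miRs in that direction. MiR-10b lost its call in 4 of 17 other ways of processing (limma adjusted p = 0.0505 to 0.0822).

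Against GMP the falls in MEP were 2.57 ± 0.55 for miR-10a (limma adjusted p = 0.00114) and 1.66 ± 0.34 for miR-196b (adjusted p = 0.000829). Over 18 other ways of processing both stayed called, at 1.21 to 3.08 for miR-10a and 0.62 to 1.84 for miR-196b, the lowest of each with normexp. In the reported processing miR-10b was at least 1.85-fold lower in MEP, with a measured difference of 2.31 ± 0.68 (limma adjusted p = 0.00966). Over 17 other ways of processing that difference ran from 0.38 to 2.66, its lowest below the bound, which is 0.89 in log2. MiR-196a was called at 1.40 ± 0.52 (limma adjusted p = 0.0307), with 1 GMP array and no MEP array well above background. This call rests mostly on values below the detection mark, and no fold can be given. Here too 4 of 4 were called, of which only miR-10a and miR-196b were well above background in MEP. Of all tested miRs 62.9% were called and 40.9% in that direction, with a median over all of 0.44. The median of the 4 was 1.99 as measured and 1.27 with miR-10b and miR-196a at their bounds. The miR-196a call was lost without GMP 1, GMP 2, MEP 1 or MEP 3 (limma adjusted p = 0.0742, 0.114, 0.0978 and 0.112). The miR-10b call was lost without GMP 2, at 1.84, and without MEP 3, at 2.01 (limma adjusted p = 0.0501 each). Over 17 other ways of processing the miR-196a call was lost in 6, where its difference ran from 0.12 to 1.47 (limma adjusted p up to 0.448), and the miR-10b call in 3 (adjusted p = 0.0605 to 0.0903).

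Within slide 1 alone MEP was lower than CMP by 2.66 for miR-10a and 3.07 for miR-196b (limma adjusted p = 0.000819 and 0.000559), where 72.6% of the tested miRs were called. It was lower than GMP there by 2.38 and 1.82 (limma adjusted p = 0.00111 and 0.00271), where 74.3% were called. MiR-10b and miR-196a were also called in both, against MEP arrays on which they were not well above background. CMP, GMP and MEP have the same layout over slides, so a slide term cannot change the differences between them.

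**Figure D4:**
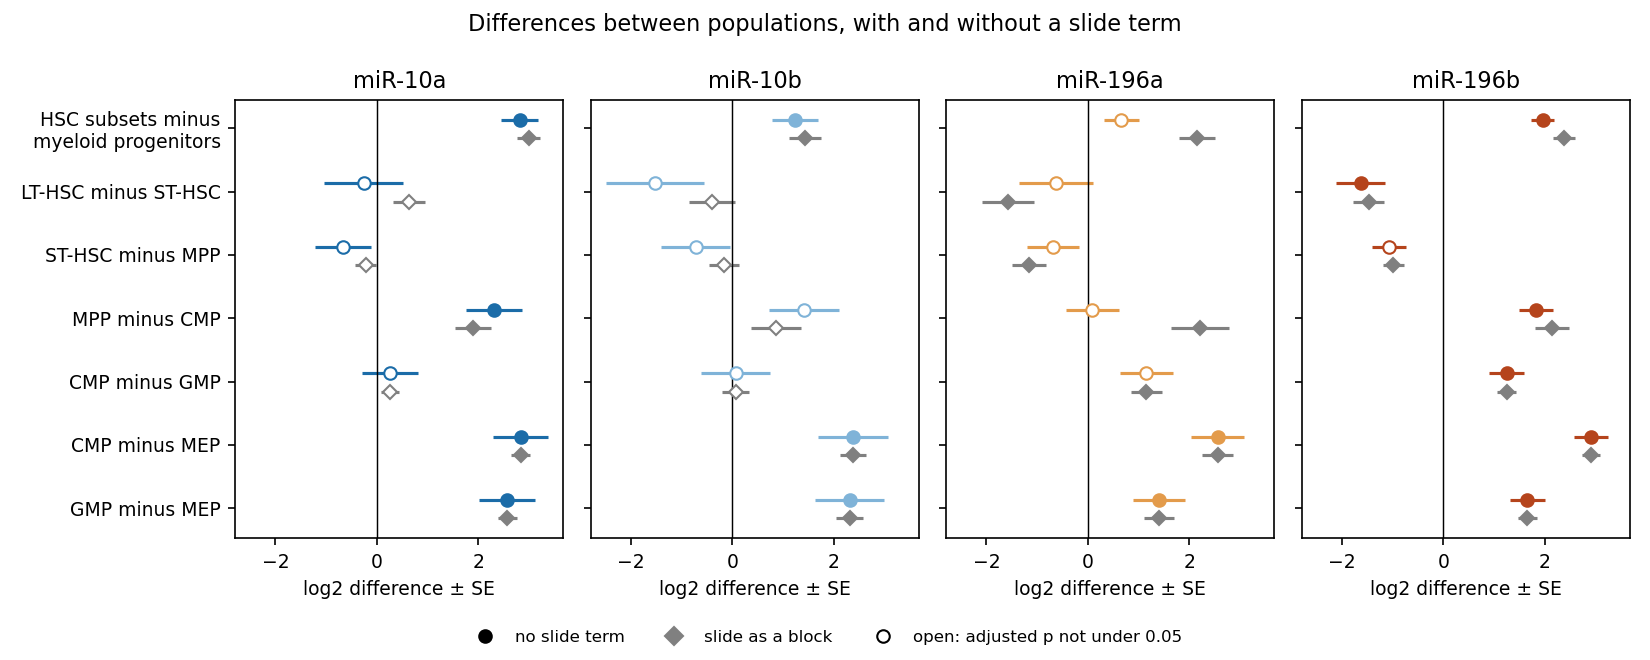
Log2 difference with its SE (x axis) for each of the 7 comparisons (y axis) and each miR, without a slide term (colored circles) and with slide as a block (grey diamonds), filled where the adjusted p was under 0.05. MiR-196a moves most with the slide term, from 0.09 to 2.21 in MPP minus CMP. Differences between CMP, GMP and MEP are the same with and without the term because these populations share their slide layout. With the term, LT-HSC minus ST-HSC is LT-HSC 1 minus ST-HSC 1 alone, and ST-HSC minus MPP is the difference on slide 3.

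MiR-10a and miR-196b were the only members well above background on every array. They were picked as the member of each seed pair with the clearest signal in earlier results of these data. The log2 difference between their signals was followed from array to array. The value itself compares different probes and has no meaning as a ratio of molecules, but a change in it shows that they did not change alike. It was 2.48 on the LT-HSC array, 0.37, 1.47 and 1.47 in ST-HSC and 0.51, 0.78 and 0.84 in MPP. In CMP it was 0.15, 0.46 and 0.07, in GMP 1.21, 1.32 and 1.09 and in MEP 0.73, 0.69 and -0.54. Every GMP array lay above every CMP and MEP array, and the LT-HSC array lay above all others.

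HSC subsets (1.13 ± 0.73, SD, n = 7) and myeloid progenitors (0.58 ± 0.61, SD, n = 9) differed by 0.56 in this measure, which was not past the threshold (two-sided exact permutation test over 11440 splits, p = 0.121). Each array counted equally here, so the LT-HSC array had less weight than in the limma comparison of the same sides. Within slide 2 the difference was 1.22 (exact permutation p = 0.4, where 0.1 is the smallest p that 2 against 3 arrays allow). Without the LT-HSC array it was 0.33 (exact permutation p = 0.284).

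**Figure D5:**
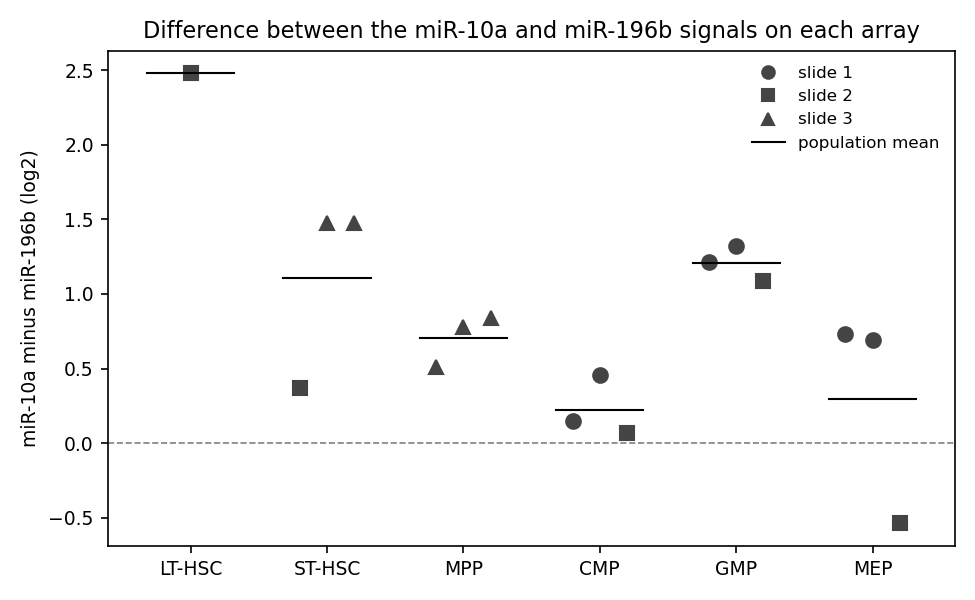
Log2 signal of miR-10a minus that of miR-196b (y axis) on each array by population (x axis), with the slide as the marker shape and a bar at the population mean. The LT-HSC array is highest at 2.48, the 3 GMP arrays lie between 1.09 and 1.32, and MEP 3 is lowest at -0.54.

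The opposite arms of the same hairpins were mostly not detected. Of the 3 on the array (miR-10a*, miR-10b* and miR-196a*), only miR-10a* was tested. It was well above background on 2 ST-HSC and 3 MPP arrays and on no other. It passed the filter through these 2 populations alone, so its tests are left out, and no fold against the others can be given. MiR-615-3p and miR-615-5p, from a further miR gene in the Hoxc cluster, inside the span of Hoxc5, were not well above background on any array.

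The 3 relatives of miR-10 lie outside the Hox clusters. MiR-99a was higher in HSC subsets by 2.92 and miR-100 by 1.10 (limma adjusted p = 1.20e-08 and 0.00678). MiR-99b did not rise well above background in any of the myeloid samples and was lower there by a factor of at least 1.24. It passed the filter through ST-HSC and MPP alone, so no test of it is given. Against MEP, miR-99a was higher in CMP, and miR-100, not well above background on any MEP array, was at least 3.35-fold higher in CMP. Between MPP and CMP, miR-99a was higher in MPP and miR-99b at least 1.08-fold higher, and miR-100 differed by -0.26 (limma adjusted p = 0.639).

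The 9 let-7 and miR-98 members, which share AGGUAG with the miR-196 pair, were set beside it. Let-7e was well above background on only 2 myeloid arrays and passed the filter only through the HSC subsets, so no test of it is given. Of the others, only miR-98 was called between HSC subsets and myeloid progenitors, at -0.77 (limma adjusted p = 0.0453), beside 48.1% of all tested miRs. The median over the 9 was 0.52. Between CMP and MEP only let-7i of the others was called, beside 64.6% of all tested miRs, with a median over the 9 of 0.44. From MPP to CMP let-7a and let-7c of the others were called, both higher in MPP, beside 17.3% of all tested miRs in that direction. The median over the 9 was 1.25 there.

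The profiles of the 4 miRs over the 16 arrays ran alongside each other. Pearson's r was 0.91 for miR-10a with miR-10b, 0.85 for miR-196a with miR-196b and 0.93 for miR-10a with miR-196b, the highest of the 6 pairs. The lowest was 0.74, for miR-10a with miR-196a. The median over all pairs of tested miRs was 0.05. These values are descriptions over arrays that share populations and slides.

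Among all tested miRs, the profile most like that of miR-10a was that of miR-125b-5p, a stem and endothelial marker named above (r = 0.96), followed by miR-99a (0.95) and let-7e (0.94). MiR-10b was most like miR-155, the lymphoid marker named above (0.98), miR-532-3p (0.93) and miR-203 (0.93). MiR-196a was most like miR-100 (0.90), miR-126-5p (0.87) and miR-500 (0.87), and miR-196b most like miR-203 (0.98), let-7e (0.94) and miR-28 (0.94).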

How the data were processed

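The authors deposited Agilent Feature Extraction output (versions 9.5.3.1 and 10.2.1.3), in which each spot has a background-subtracted intensity that is not normalized between arrays, and a table of log2 values that the authors had quantile-normalized with limma and that follow the foreground intensity without background subtraction. From the deposited intensity, control spots and outlier spots were left out, the spots of a probe averaged, quantile normalization applied over the 16 arrays and log2 taken of values no lower than a floor of 3.07 units. The floor is the median, over the arrays, of each array's 95th percentile of negative control spots. No spot was saturated.

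The brightest probe well above background on at least 3 arrays stood for its miR, which left 493 probes of 237 miRs. A mean per population was fitted with lmFit and eBayes (limma 3.58.1, R 4.3.3; 10 residual and 3.10 prior degrees of freedom). The fit was tested on simulated data. The limma difference between HSC subsets and myeloid progenitors is that of the means of 3 population means. For miR-10a minus miR-196b it is the difference of plain means over arrays. Groups and replicate numbers came from the titles. Unnumbered titles were given the free number. Deviations of same-numbered CMP, GMP and MEP arrays, which shared slides, correlated at 0.23 to 0.63, so the numbers pair these arrays through the slide. Same-numbered arrays on different slides correlated at -0.37 to 0.16 and are not paired.

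The text names the 4 miRs, their opposite arms, miR-615, the relatives of miR-10, let-7 with miR-98, cell type markers and, for each miR, the 3 tested miRs with the highest Pearson's r. The miRs and lists were chosen with earlier results of these data known. MiR-196b* was not analysed here. The sequences printed are RefSeq's, and all 4 names matched. Probe lengths follow the mm9 coordinates of the files. Precision is limited by how few arrays there are. Alternatives covered the normalization, normexp with an offset of 50, the floor, the detection filter and share, the choice of probe, the variance model, slide, replicate number, the threshold, the authors' values and each array left out.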

Additional observations from a re-analysis of the deposited data

How the results depend on the processing

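Of the 482 results for a miR and comparison under other processing, with no array left out, 427 kept their side of the threshold, and no called difference turned its sign. The counts of the 4 miRs called moved as follows, and where no value shows it the cause was not tested. The F test and the comparisons of CMP and of GMP with MEP called 2 when detection on all 16 arrays was required, since only miR-10a and miR-196b were then tested. HSC subsets against myeloid progenitors (3) gave 4 with the 75th percentile of probes above background on all arrays and with slide as a fixed or random block, 2 with normexp, the doubled floor, no filter, detection on all arrays, the mean of probes and the second probe, 1 without normalization and 0 within slide 2. LT-HSC against ST-HSC gave 0 with the 75th percentile of probes above background on all arrays, without normalization, without the filter, with the mean of probes and with the second probe. With slide as a block that comparison is LT-HSC 1 minus ST-HSC 1 alone, so its calls are not counted here. ST-HSC against MPP gave 1 with the 75th percentile of all probes, normexp, slide as a random block, the authors' values and unadjusted p. It gave 2 within slide 3 and with slide as a block, which give the same differences. MPP against CMP (2) gave 0 without normalization, 1 with the second probe and 3 with the 75th percentile of probes above background on all arrays, slide as a fixed or random block and the authors' values. CMP against GMP gave 2 with the 75th percentile of probes above background on all arrays, slide as a fixed block (where calls over all tested miRs rose from 18 to 68) or random block and unadjusted p, and 0 with the 75th percentile of all probes, without normalization and without the filter. GMP against MEP gave 2 with normexp and the authors' values and 3 with the 75th percentile of probes above background on all arrays, no normalization, the doubled floor, no filter and the second probe. CMP against MEP gave 3 without normalization and with normexp, the second probe and the authors' values, and the F test 3 with the second probe. The miR-10a minus miR-196b difference passed at 0.62 with normexp, 0.90 with the second probe and 0.65 with the authors' values (exact permutation p = 0.011, 0.0495 and 0.017), and was 0.40 to 1.22 over these settings.

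With 1 array left out, the counts ran from 2 to 4 for HSC subsets against myeloid progenitors, 0 to 1 for LT-HSC against ST-HSC and for ST-HSC against MPP, 0 to 2 for CMP against GMP and 2 to 4 for GMP against MEP. They stayed at 4 for the F test and for CMP against MEP and at 2 for MPP against CMP. The miR-10a minus miR-196b difference ran from 0.33 to 0.68. MiR-196a was positive and significant over background, a looser call, on 15 arrays.

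Over all tested miRs, calls ranged from 85 to 220 for F (196), 0 to 146 for HSC subsets against myeloid progenitors (114), 19 to 115 for LT-HSC against ST-HSC (54), 0 to 59 for ST-HSC against MPP (11), 20 to 107 for MPP against CMP (78), 2 to 68 for CMP against GMP (18), 63 to 195 for CMP against MEP (153) and 56 to 192 for GMP against MEP (149), with the reported count in parentheses. Where that count was 0 for ST-HSC against MPP, without normalization, 16 miRs had an unadjusted p under 0.05 (limma).

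With the replicate number as a block no call of the 4 miRs changed, and 107 miRs were called between HSC subsets and myeloid progenitors. Values of miR-10b and miR-196a below the detection mark are limited by signal over background.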
